A study of Danio rerio with 15 samples.

Results

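Among the 33752 Ensembl gene identifiers counted in adult zebrafish testes, 5 belong to transcription factors of the male gonad and are described here: dmrt1, sox9a, sox9b, wt1a and wt1b. They were taken by identifier and not by a rule on measured values, although earlier results of these data were known at the choice. The identifiers were ENSDARG00000007349 for dmrt1, ENSDARG00000003293 for sox9a, ENSDARG00000043923 for sox9b, ENSDARG00000031420 for wt1a and ENSDARG00000007990 for wt1b. All 5 were abundant enough to be tested, among 21277 tested genes. RNA sequencing measured messenger RNA of adult zebrafish (Danio rerio, wild type) testes in 3 groups, named control, depletion and recovery in the sample titles and called control, depleted and recovering here. All fish shared the wild-type genotype, and no transgene or allele is named. The labels state neither how the testes were depleted, nor how long they recovered, nor whether a sample pooled several fish. Counts of 4 control, 5 depleted and 5 recovering testes were used.

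Dmrt1 carries a DM domain, the DNA-binding domain shared by sex-determining factors of many animals, and zebrafish that lack it develop mostly as females. The Sox9 proteins bind DNA through an HMG box, and in mammals Sox9 drives Sertoli cell differentiation and activates Amh. Zebrafish kept 2 copies of sox9 and 2 copies of wt1 from the genome duplication of teleost fishes. Wt1 is a zinc finger protein, named after Wilms tumour of the kidney, that in mammals is needed for the early gonad and for Sertoli cells, and that also marks podocytes of the kidney and mesothelial cells. Sertoli cells are the somatic cells that enclose and nourish germ cells, so the balance of germ cells and somatic cells sets how much of a testis library comes from each.

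Libraries held from 8123444 to 48646941 counts. Levels are CPM, the count of a gene in every 1000000 counts of a library whose size was adjusted with the trimmed-mean method TMM. CPM depends on transcript length as well as abundance, so levels are compared between samples and never between genes. The Sertoli marker gsdf lay between 573 and 3057 CPM in the 14 libraries and the Sertoli marker amh between 109 and 838 CPM. The depleted testes were uneven: ddx4, a germ cell RNA helicase listed as DDX4 in the gene table, stood at 694, 655, 27.2, 107 and 1.92 CPM in depleted replicates 1 to 5, against 969 to 1103 CPM in control testes. These are shares of whole-testis libraries, in which a change in the number of cells of a type cannot be told apart from a change in RNA per cell. The design text speaks of biological replicates without saying whether each is a separate fish. The p-values here set differences between groups against the spread between these samples.

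In depleted testes 4 of the 5 genes rose against control testes, and dmrt1 did not pass the test. The call of sox9b was lost in 17 of 24 alternative settings, which leaves 3 of the 5 there, while those of sox9a, wt1a and wt1b held in all 24. The estimated fold was 14.3 for sox9a, 11.1 for wt1a, 11.5 for wt1b and 2.03 for sox9b. Of all tested genes, 34.2% rose in this comparison, 32.1% fell and 66.3% changed in either direction (edgeR quasi-likelihood test, Benjamini-Hochberg adjusted p under 0.05 over all tested genes). From depleted to recovering testes 2 of the 5 fell, sox9a and wt1a, where 30.5% of all tested genes fell, 28.7% rose and 59.2% changed in either direction. Between recovering and control testes 0 of the 5 were called by edgeR, where 0.451% of all tested genes were called in either direction. At an unadjusted p under 0.05 edgeR had 3 of the 5 in that comparison (sox9a, wt1a and wt1b, all higher in recovering testes), beside 16.0% of all tested genes. DESeq2 called sox9a, beside 4.51% of the genes it tested, and limma-voom (with quality weights) called sox9a, beside 11.2%. No member separated the recovering from the control testes without overlap, where 6.49% of all tested genes had every recovering sample above and 6.01% every recovering sample below the controls.

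**Figure D1:**
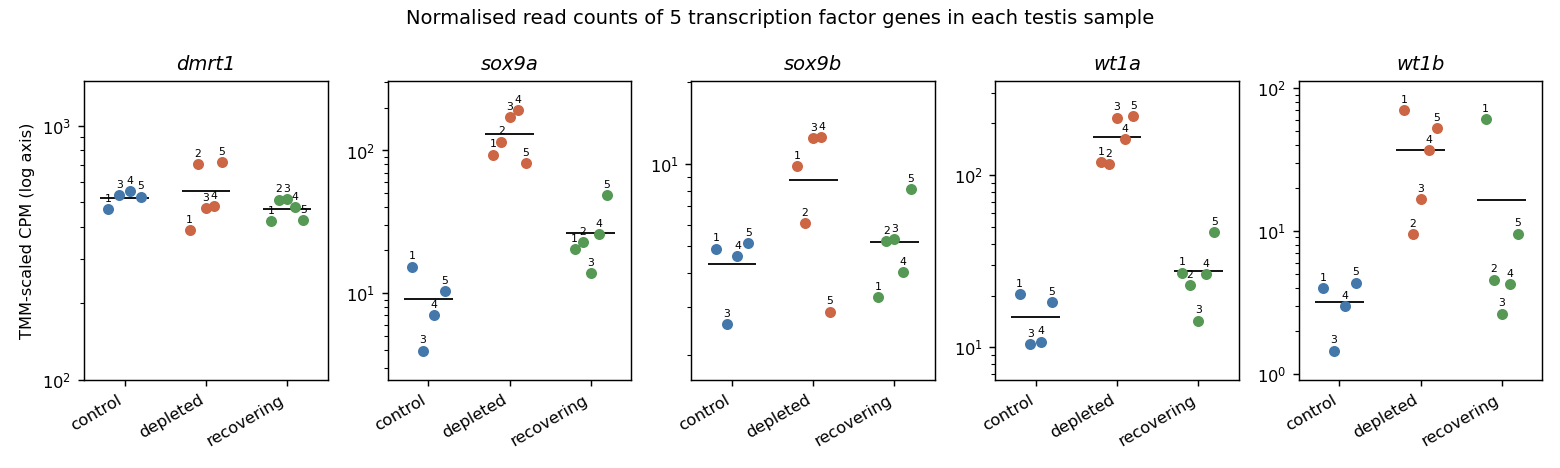
TMM-scaled CPM on a log axis for dmrt1, sox9a, sox9b, wt1a and wt1b in each library; points are samples with their replicate number, and horizontal lines are group means. The depleted samples of sox9a, wt1a and wt1b all lie above every control sample, dmrt1 stays between 387 and 718 CPM throughout, and recovering replicate 1 stands apart for wt1b at 60.8 CPM.

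The level of dmrt1 was steady in control testes, at 469, 534, 554 and 526 CPM in replicates 1, 3, 4 and 5. In depleted testes it was 387, 708, 473, 482 and 718 CPM in replicates 1 to 5. In recovering testes it was 421, 512, 513, 478 and 426 CPM in replicates 1 to 5. The groups overlapped in every comparison. On the TMM scale, depleted replicates 2 and 5 lay above all controls and depleted replicate 1 lay below them. That placement depends on the scaling: TMM factors were 1.04, 0.852, 0.905, 0.802 and 0.725 in depleted replicates 1 to 5. Those of control testes lay between 1.09 and 1.14. Group means were 521 ± 36.3, 554 ± 150 and 470 ± 44.5 CPM for control, depleted and recovering testes (SD, n = 4, 5 and 5), so the spread was widest in depleted testes. The coefficient of variation was 6.97% in control, 27.1% in depleted and 9.47% in recovering testes. The common dispersion of all tested genes, a measure of spread between samples, was likewise highest in depleted testes. It was 0.415 there, 0.0847 in control and 0.154 in recovering testes.

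For dmrt1 no comparison passed the test. The log2 fold change in depleted against control testes was 0.088 (SE 0.20, with an adjusted p of 0.699 in edgeR), with a 95% interval from -0.33 to 0.51 that corresponds to folds between 0.794 and 1.42. Its sign depended on the scaling, at -0.020 with DESeq2 size factors and -0.31 with total counts, where the median of all tested genes shifted from 0.032 to -0.34. For recovering against depleted it was -0.24 (SE 0.18, with an adjusted p of 0.276 in edgeR) and turned to 0.10 with total counts. In recovering against control testes it was -0.15 (SE 0.19, edgeR adjusted p = 0.789, 95% interval -0.57 to 0.27).

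The sox9a gene, the copy of sox9 known from zebrafish Sertoli cells, was low in control testes, at 15.3, 3.95, 7.04 and 10.3 CPM in replicates 1, 3, 4 and 5. In depleted testes it was 93.4, 115, 172, 192 and 81.8 CPM in replicates 1 to 5. In recovering testes it was 20.3, 22.8, 13.8, 25.8 and 48.3 CPM in replicates 1 to 5. All 5 depleted testes lay above every control and every recovering testis, and among recovering testes replicates 1, 2, 4 and 5 exceeded every control. Of all tested genes, 25.5% had every depleted sample above every control sample, and 14.5% had every recovering sample below every depleted one. Depleted exceeded control testes by 3.84 on the log2 scale (SE 0.48, with an adjusted p of 4.96e-05 in edgeR), and from depleted to recovering testes sox9a fell by 2.32 (SE 0.40, with an adjusted p of 0.000723 in edgeR).

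Recovering testes held more sox9a than control testes by estimate, averaging 26.2 ± 13.1 CPM (SD, n = 5) against 9.15 ± 4.87 CPM (SD, n = 4). The log2 fold change was 1.52 (SE 0.43, 95% interval 0.59 to 2.44), and the edgeR adjusted p was 0.104. With DESeq2 it passed the threshold (1.47, adjusted p = 0.0160), and with limma-voom too (1.55, adjusted p = 0.0193). Over all alternatives the adjusted p ranged from 0.0160 to 0.310. Without the depleted samples in the fit, where edgeR called 6.01% of tested genes, it was 1.55 with an adjusted p of 0.0591.

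Its paralogue sox9b, known in zebrafish also from the ovary, was counted little, with from 21 to 278 counts per library. Control testes held 4.91, 2.60, 4.59 and 5.12 CPM in replicates 1, 3, 4 and 5. Depleted testes held 9.84, 6.07, 12.4, 12.6 and 2.88 CPM in replicates 1 to 5. Recovering testes held 3.26, 5.22, 5.32, 4.02 and 8.11 CPM in replicates 1 to 5. Of the depleted testes 4 lay above every control, while replicate 5, with 21 counts and an exact 95% counting interval from 1.78 to 4.41 CPM, lay inside the control range.

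The rise of sox9b in depleted testes was small and rested on the settings. The log2 fold change was 1.02 (SE 0.41, with an adjusted p of 0.0418 in edgeR), and over the alternatives the adjusted p ranged from 0.00474 to 0.180. The call was lost when recovering samples were kept out of the fit (adjusted p = 0.0695, where edgeR called 61.1% of tested genes) and when total counts replaced TMM (adjusted p = 0.180). Leaving out 1 library ended the call for control replicates 1, 3, 4 and 5, depleted replicates 1, 3 and 4, and recovering replicates 2 and 3, with the adjusted p reaching 0.108. From depleted to recovering testes sox9b changed by -0.75 on the log2 scale (SE 0.38, with an adjusted p of 0.102 in edgeR), and without depleted replicate 5 it was -0.98 with an adjusted p of 0.0169, where the alternatives ranged from 0.0169 to 0.327. Between recovering and control testes sox9b did not pass the test, at 0.27 on the log2 scale (SE 0.40, 95% interval -0.60 to 1.14, edgeR adjusted p = 0.821).

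**Figure D2:**
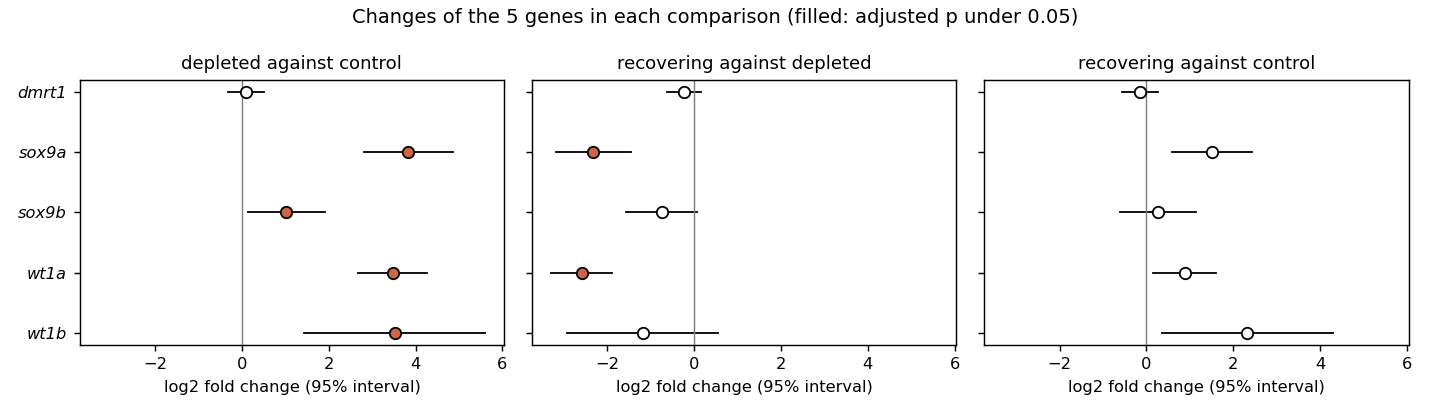
Log2 fold changes of the 5 genes in the 3 comparisons from the edgeR fit of all samples, with 95% intervals as bars; filled points have an adjusted p under 0.05. The interval of dmrt1 spans 0 in each comparison, sox9a and wt1a are filled on both sides of 0, and wt1b has the widest intervals.

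The ratio of both sox9 copies was taken within each library, where scaling cancels, and compared between samples without reading from it which copy was more abundant. The count of sox9a divided by that of sox9b, with 0.5 added to each, was 3.11, 1.51, 1.53 and 2.00 in control replicates 1, 3, 4 and 5. It was 9.44, 18.8, 13.8, 15.2 and 27.7 in depleted replicates 1 to 5, and 6.15, 4.35, 2.58, 6.33 and 5.94 in recovering replicates 1 to 5. The depleted testes lay above both other groups without overlap, and recovering replicate 3 was the only recovering testis inside the control range. The mean log2 ratio was 3.03 higher in depleted than in control testes (two-sided exact permutation p = 0.00794, Benjamini-Hochberg adjusted 0.0179 over 9 tests). From depleted to recovering testes it fell by 1.73 (exact permutation p = 0.00794, adjusted 0.0179). It was 1.31 higher in recovering than in control testes (exact permutation p = 0.0238, adjusted 0.0357), and the adjusted value reached 0.0964 when 1 library was left out, passing the threshold only without control replicate 1 or recovering replicate 3. With 4 and 5 samples, as with 5 and 5, no two-sided p below 0.00794 can be reached.

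The ratio of dmrt1 to sox9a moved the other way. Both ratios contain sox9a and dmrt1 itself was not called, so this ratio mostly restates the change of sox9a. The ratio of dmrt1 to sox9a was 30.5, 133, 78.3 and 51.2 in control replicates 1, 3, 4 and 5. It was 4.15, 6.14, 2.75, 2.51 and 8.77 in depleted replicates 1 to 5. In recovering replicates 1 to 5 it was 20.7, 22.4, 37.2, 18.5 and 8.81. The depleted and recovering groups did not overlap, though depleted replicate 5 and recovering replicate 5 nearly met. The mean log2 ratio fell by 3.87 from control to depleted testes (exact permutation p = 0.00794, adjusted 0.0179) and rose by 2.17 from depleted to recovering testes (exact permutation p = 0.00794, adjusted 0.0179). Between recovering and control testes the difference was -1.70 (exact permutation p = 0.0238, adjusted 0.0357), and the adjusted value reached 0.107 when 1 library was left out, again passing only without control replicate 1 or recovering replicate 3.

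**Figure D3:**
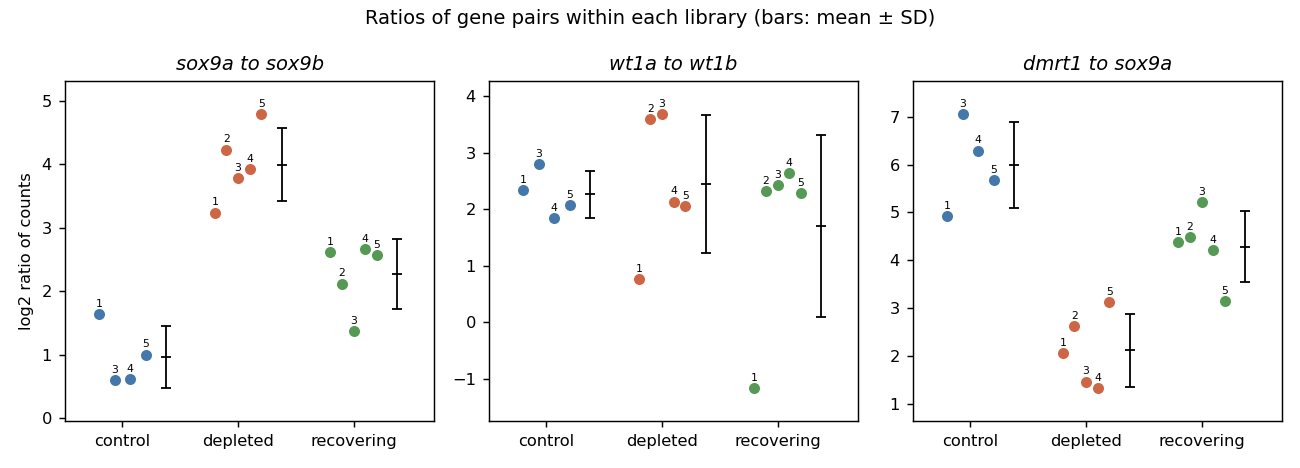
Log2 ratios of counts within each library for sox9a to sox9b, wt1a to wt1b and dmrt1 to sox9a; points are samples with their replicate number, bars are the mean ± SD of the group. The depleted group stands above the others for sox9a to sox9b and below them for dmrt1 to sox9a, while wt1a to wt1b overlaps in all groups and has 1 low sample, recovering replicate 1, at -1.16.

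The wt1a gene, expressed in podocytes and gonads of zebrafish, was, like sox9a, highest in depleted testes. Control testes held 20.4, 10.4, 10.8 and 18.3 CPM in replicates 1, 3, 4 and 5. Depleted testes held 119, 115, 215, 162 and 219 CPM in replicates 1 to 5, and recovering testes 27.1, 23.0, 14.3, 26.7 and 46.6 CPM. The depleted testes lay above both other groups without overlap, and among recovering testes replicates 1, 2, 4 and 5 exceeded every control. Every depleted sample exceeded every control in 25.5% of all tested genes, and every recovering sample lay below every depleted one in 14.5%. From control to depleted testes wt1a rose by 3.47 on the log2 scale (SE 0.37, with an adjusted p of 3.15e-05 in edgeR), and from depleted to recovering testes it fell by 2.59 (SE 0.33, with an adjusted p of 0.000237 in edgeR). Recovering testes exceeded control testes by 0.88 on the log2 scale (SE 0.34, a fold of 1.84 with a 95% interval from 1.11 to 3.03), with an edgeR adjusted p of 0.214.

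The wt1b gene, the second wt1 copy, rose by a similar estimate but less evenly. Control testes held 3.97, 1.46, 2.99 and 4.35 CPM in replicates 1, 3, 4 and 5, the lowest of which rests on 14 counts (exact 95% counting interval 0.796 to 2.44 CPM). Depleted testes held 70.0, 9.46, 16.6, 36.8 and 52.4 CPM in replicates 1 to 5, a 7.39-fold range. Recovering testes held 60.8, 4.56, 2.64, 4.24 and 9.58 CPM in replicates 1 to 5. All depleted testes lay above all controls, as in 25.5% of all tested genes. Recovering replicate 1, with 560 counts, stood inside the depleted range, whereas the other 4 recovering testes averaged 5.25 CPM with a highest value of 9.58 CPM. The log2 fold change in depleted against control testes was 3.52 (SE 0.97, 95% interval 1.44 to 5.60, edgeR adjusted p = 0.00623).

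Recovering replicate 1 moved the other estimates of wt1b. From depleted to recovering testes it changed by -1.19 on the log2 scale (SE 0.81, with an adjusted p of 0.213 in edgeR), and without recovering replicate 1 it was -2.82 with an adjusted p of 0.00263. With that library kept, limma-voom also passed the threshold (-2.04, adjusted p = 0.0209), as did edgeR with a replicate block. Of 24 alternatives 4 called this fall, and over all 24 the adjusted p ranged from 0.00263 to 0.447. Against control testes, recovering testes were not called with or without it: wt1b was 2.33 higher on the log2 scale (SE 0.92, with an adjusted p of 0.230 in edgeR), and without recovering replicate 1 it was 0.70 with an adjusted p of 0.746, where the alternatives ranged from 0.0667 to 0.746. The other 4 genes were not high in that library: dmrt1 and sox9b were at their lowest of the recovering testes there, and sox9a and wt1a lay within the range of the other 4.

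No comparison of the ratio of both wt1 copies passed the test. The ratio of wt1a to wt1b counts lay between 3.58 and 6.93 in control testes, between 1.70 and 12.9 in depleted testes, and between 4.85 and 6.24 in recovering testes other than replicate 1, where it was 0.447. The mean log2 ratio in depleted testes was 0.19 above that in control testes (SD 1.22 and 0.41, exact permutation p = 0.817, adjusted 0.841). For recovering against depleted testes the difference was -0.75 (exact permutation p = 0.516, adjusted 0.663). For recovering against control testes it was -0.56 (exact permutation p = 0.841, adjusted 0.841), and without recovering replicate 1 it was 0.16.

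**Figure D4:**
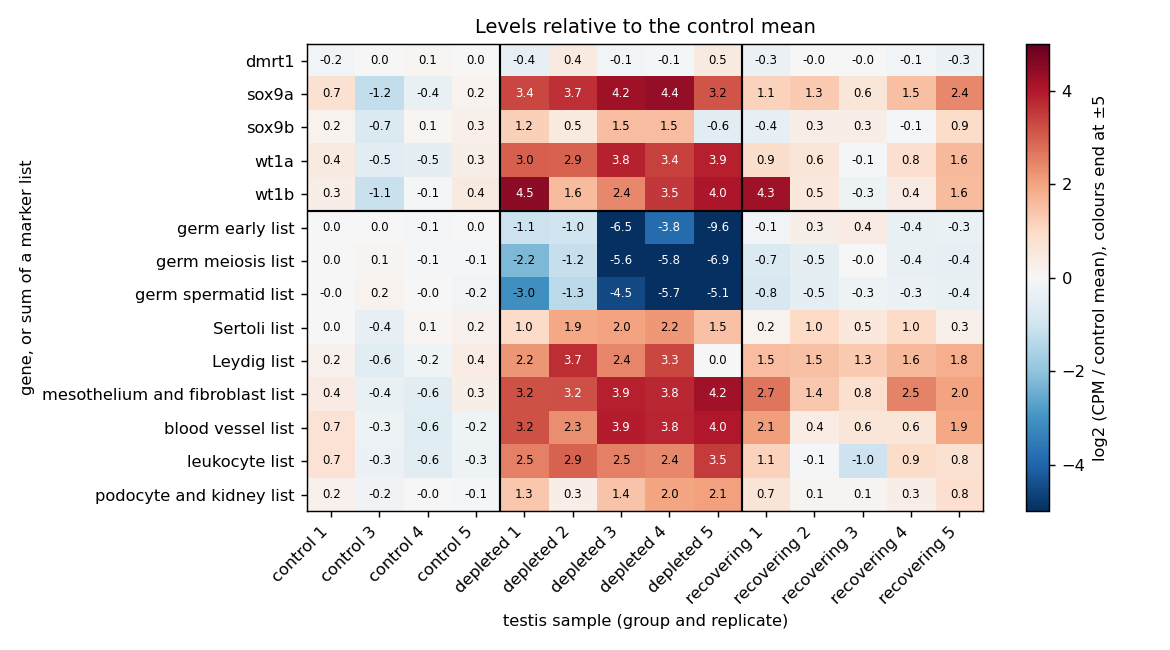
Log2 of the level in each library relative to the control mean, for the 5 genes and for the summed CPM of 9 marker lists; red is higher, blue is lower, and the number in each cell is the value. Depleted replicates 3, 4 and 5 have the lowest germ cell sums, the somatic lists are mostly red in depleted testes, and the row of dmrt1 stays between -0.4 and 0.5.

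Marker lists of several cell types moved in the same comparisons. The summed level of 7 early germ cell genes was between 4375 and 4749 CPM in control testes, between 6.18 and 2338 CPM in depleted testes and between 3582 and 6139 CPM in recovering testes. That of 10 meiotic genes was between 4657 and 5481, between 42.7 and 2243 and between 3048 and 4902 CPM in these groups. In depleted against control testes 3 of the 7 early and 8 of the 10 meiotic genes fell and 0 rose (edgeR, adjusted p under 0.05). Of all tested genes, 32.1% fell and 34.2% rose in that comparison. The largest falls were those of DAZL, an RNA-binding protein of germ cells, at -2.80 (SE 1.08, with an adjusted p of 0.0343 in edgeR), and SYCP1, a protein of the synaptonemal complex, at -3.04 (SE 0.95, with an adjusted p of 0.0125 in edgeR). The log2 fold change of DDX4 was -1.83 (SE 0.99, with an adjusted p of 0.115 in edgeR) and that of SYCP3, another synaptonemal complex protein, -2.70 (SE 1.09, with an adjusted p of 0.0418 in edgeR). All 6 spermatid genes tested fell, most of all TSSK6, a kinase of spermatids, at -4.96 (SE 0.89, with an adjusted p of 0.000413 in edgeR), and their sum lay between 946 and 1175 CPM in control, between 20.8 and 413 in depleted and between 599 and 880 in recovering testes. In depleted replicates 1 to 5 the early germ cell sum was 2219, 2338, 50.9, 324 and 6.18 CPM, beside dmrt1 at 387, 708, 473, 482 and 718 CPM. The highest dmrt1 values, in replicates 2 and 5, stood beside the highest and the lowest germ cell sum of the depleted testes. Replicate 1, with a germ cell sum near that of replicate 2, had the lowest dmrt1 on the TMM scale, and that rank depends on the scaling. A link between dmrt1 and germ cell content was not tested.

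Somatic lists rose in depleted against control testes, where 34.2% of all tested genes rose and 32.1% fell. Of 7 Sertoli cell identifiers 6 rose and 0 fell, with sums between 943 and 1461 CPM in control, between 2486 and 5686 in depleted and between 1441 and 2545 in recovering testes. In this list gsdf, a growth factor of the TGF-beta family, had a log2 fold change of 1.54 in depleted against control testes (SE 0.35, with an adjusted p of 0.00179 in edgeR), amh, the anti-Müllerian hormone, 0.62 (SE 0.44, with an adjusted p of 0.219 in edgeR), and FSHR, the receptor of follicle-stimulating hormone, 3.31 (SE 0.57, with an adjusted p of 0.000298 in edgeR). The largest rise in the list was that of CLDN11 (ENSDARG00000020031), a tight junction claudin of Sertoli cells, at 3.43 (SE 0.34, with an adjusted p of 2.89e-05 in edgeR). The median log2 fold change of the list was 2.49, beside 0.032 for all tested genes. In depleted replicate 5, where sox9b lay inside the control range, the Sertoli sum was 3496 CPM and gsdf was 1600 CPM, both above every control, while amh at 261 CPM lay inside the control range and FSHR at 19.5 CPM just above it.

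Most genes of the fibroblast, blood vessel, leukocyte and Leydig cell lists rose too, whereas the podocyte and kidney list was mixed. Beside these lists, 34.2% of all tested genes rose and 32.1% fell in depleted against control testes. Of 8 mesothelial and fibroblast identifiers 7 were tested, 6 rose and 0 fell, with sums between 416 and 822 CPM in control, between 5575 and 11238 in depleted and between 1069 and 3891 in recovering testes. The largest rise of that list was that of COL1A2, a type I collagen chain, at 4.85 (SE 0.81, with an adjusted p of 0.000256 in edgeR). All 3 blood vessel genes rose, most of all TIE1, an endothelial receptor kinase, at 4.21 (SE 0.58, with an adjusted p of 8.49e-05 in edgeR), with sums between 8.73 and 21.6 CPM in control, between 66.0 and 211 in depleted and between 16.9 and 55.5 in recovering testes. Of 7 tested leukocyte identifiers 6 rose, most of all MPEG1 (ENSDARG00000055290), a macrophage protein, at 3.98 (SE 0.68, with an adjusted p of 0.000311 in edgeR), with sums between 306 and 751 CPM in control, between 2404 and 5146 in depleted and between 219 and 999 in recovering testes. Of 9 Leydig cell identifiers 8 rose and 1 fell, and the largest rise was that of hsd3b1, an enzyme of steroid synthesis, at 3.98 (SE 0.59, with an adjusted p of 0.000130 in edgeR). Their sum lay between 731 and 1411 CPM in control, between 1108 and 14070 in depleted and between 2670 and 3857 in recovering testes. Of 8 tested podocyte and kidney identifiers 3 rose, 3 fell and 2 were not called, with sums of all 9 identifiers between 258 and 347 CPM in control, between 367 and 1236 in depleted and between 325 and 529 in recovering testes. The podocyte slit protein NPHS1 fell in depleted testes, at -1.84 on the log2 scale (SE 0.45, with an adjusted p of 0.00333 in edgeR), while podxl, a sialomucin of podocytes and blood vessels, rose by 3.99 (SE 0.66, with an adjusted p of 0.000251 in edgeR). The part of these cell types in the changes of sox9a, sox9b, wt1a and wt1b was not tested.

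In recovering replicate 1, where wt1b was high, NPHS1 stood at 13.1 CPM, the lowest of the 5 recovering testes (up to 25.4 CPM). From the same list, podxl stood at 199 CPM there, and at 69.1, 58.5, 79.2 and 320 CPM in recovering replicates 2 to 5. Collagen col1a1a was at 997 CPM in recovering replicate 1, the highest of the recovering testes, where the others lay between 145 and 676 CPM. Several list sums also stood at an end of the recovering testes there. The fibroblast (3891 CPM), blood vessel (55.5 CPM) and leukocyte (999 CPM) sums were the highest. The meiotic (3048 CPM), spermatid (599 CPM) and Sertoli (1441 CPM) sums were the lowest. The early germ cell, Leydig cell and podocyte and kidney sums lay within the range of the other recovering testes. The part of these genes and lists in the level of wt1b was not tested. Of 8 ovarian identifiers 3 were tested, and 2 fell and 0 rose in depleted against control testes, where 32.1% of all tested genes fell. The larger fall was that of bmp15, a growth factor of oocytes, at -2.08 (SE 0.67, with an adjusted p of 0.0144 in edgeR). The ovarian factor FOXL2 was near 0 in every library, at most 0.639 CPM for one identifier and 1.39 CPM for the other, and figla, a factor of oocytes, had no count in control or depleted testes.

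Other regulators of the gonad, a list of 34 symbols of which 30 were matched to 29 identifiers, mostly rose with depletion. Of 21 tested identifiers 15 rose, 3 fell and 3 were not called in depleted against control testes. Of all tested genes, 34.2% rose and 32.1% fell there. The median log2 fold change was 1.79, beside 0.032 for all tested genes. In recovering against depleted testes 2 rose and 12 fell, where 28.7% of all tested genes rose and 30.5% fell, with a median of -1.13 beside -0.043. In recovering against control testes the median was 0.64 beside -0.0073. There edgeR called 0 of the 21, beside 0.451% of all tested genes. At an unadjusted p under 0.05 edgeR had 6 of them, beside 16.0% of all tested genes. DESeq2 called 3 of the 21, beside 4.51% of all its tested genes, and limma-voom 5 of the 21, beside 11.2%. NR5A1, which encodes steroidogenic factor 1, averaged 43.8 CPM in the 5 depleted testes (SD 25.6) against 5.12 CPM in the 4 controls (SD 1.49), a rise of 3.09 on the log2 scale (SE 0.49, with an adjusted p of 0.000181 in edgeR). The largest rise in the list was that of TCF21, a bHLH factor of mesenchymal cells, at 3.44 (SE 0.74, with an adjusted p of 0.00143 in edgeR).

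The largest called fall among them was that of SOX8 (ENSDARG00000037782), a relative of Sox9 in the SoxE family. It averaged 73.0 ± 20.6, 13.6 ± 17.0 and 62.3 ± 24.5 CPM in control, depleted and recovering testes (SD, n = 4, 5 and 5). Its log2 fold change in depleted against control testes was -2.42 (SE 0.85, with an adjusted p of 0.0222 in edgeR). Depleted replicates 1 and 2, which held most ddx4, had 25.5 and 37.9 CPM of SOX8, and replicates 3, 4 and 5 had 1.69, 2.16 and 0.961 CPM. In direction SOX8 thus differed from both sox9 copies, although the difference itself was not tested.

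**Figure D5:**
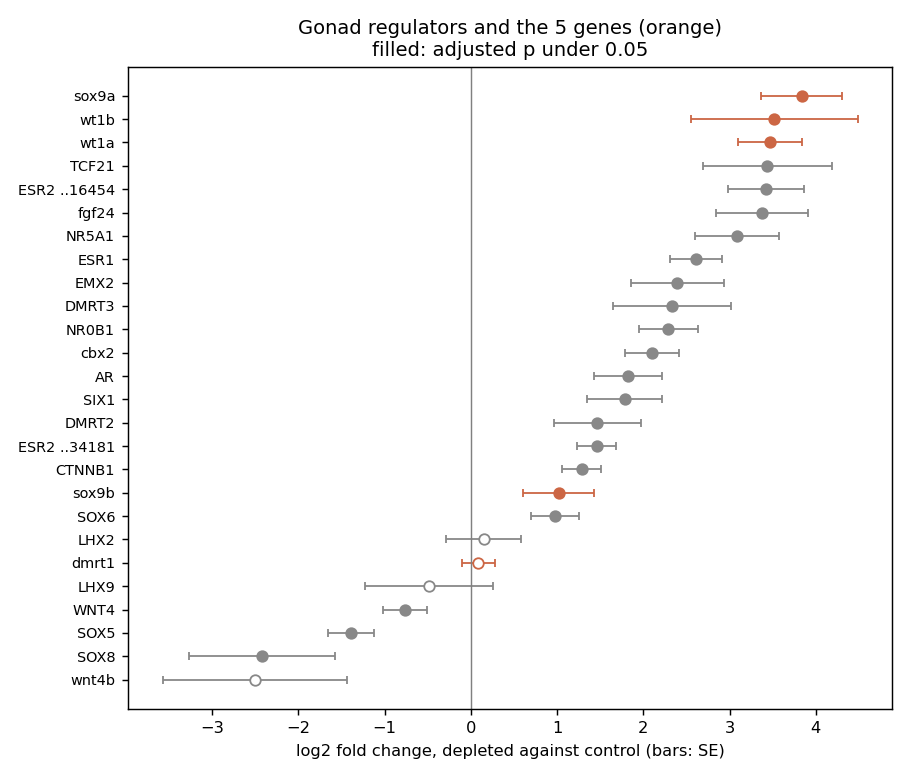
Log2 fold changes in depleted against control testes with SE bars for the 21 tested gonad regulators (grey, symbols as in the gene table, the last digits of the identifier where 2 identifiers share a symbol) and the 5 genes described here (orange); filled points have an adjusted p under 0.05. The points of sox9a, wt1b and wt1a lie at the upper end, dmrt1 lies next to 0, and SOX8 lies near the lower end at -2.42.

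Of the relatives of dmrt1 in the DM family, DMRT2 had at most 193 counts and DMRT3 at most 123 counts in a library. In the RefSeq table of the assembly GRCz12tu dmrt2a and dmrt3a lie at dmrt1 on the chromosome, and the gene table used for symbols lists DMRT2 and DMRT3 without a paralogue letter. DMRT3 (ENSDARG00000035290) averaged 6.82 CPM in depleted testes (SD 4.75, n = 5) against 1.30 CPM in controls (SD 0.714, n = 4), a rise of 2.33 on the log2 scale (SE 0.68, with an adjusted p of 0.00866 in edgeR). DMRT2 (ENSDARG00000015072) had a log2 fold change of 1.47 (SE 0.51, with an adjusted p of 0.0206 in edgeR). In that RefSeq table the span of dmrt1 overlaps 4 protein-coding genes, dmrt3a and dmrt2a among them, and that of wt1b overlaps 5, while sox9a and sox9b overlap 0. Whether the annotation used for counting had these overlaps, and whether strand was used, is not given in the sources used here, so how reads of overlapping genes were assigned at dmrt1 and wt1b could not be checked.

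Genes known as Sox9 targets in cartilage changed in both directions in depleted testes. Some identifiers of this list are also in the list of gonad regulators. Of 9 identifiers of that list 8 were tested, and 2 rose, 5 fell and 1 was not called in depleted against control testes. Of all tested genes, 34.2% rose and 32.1% fell there. The median log2 fold change of the list was -1.79, beside 0.032 for all tested genes. Whether Sox9 acts on these genes in testis, and the part of germ cell loss in their changes, was not tested. Collagen COL2A1 has 2 identifiers. One of them, ENSDARG00000011407, averaged 21.8 CPM in depleted testes (SD 12.2, n = 5) against 2.84 CPM in controls (SD 0.811, n = 4), a rise of 2.94 on the log2 scale (SE 0.58, with an adjusted p of 0.000811 in edgeR). The other, ENSDARG00000069093, lay between 33.8 and 47.3 CPM in controls and between 0 and 21.2 CPM in depleted testes, a change of -2.76 on the log2 scale (SE 0.93, with an adjusted p of 0.0188 in edgeR). The largest fall was that of COL9A1, another cartilage collagen, at -2.84 (SE 0.80, with an adjusted p of 0.00745 in edgeR).

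Patterns most like those of the 5 genes were sought among the other 20521 tested genes with a mean of at least 1 CPM, by Pearson correlation of log2 CPM over the 14 libraries. This is a description that includes the difference between groups, and libraries share their depth and cell makeup across genes. The genes nearest to wt1a were serinc2 (r = 0.99) and serpina10a (r = 0.99), and 2207 genes had an r of at least 0.9 with it. The genes nearest to sox9a were PPP1R3C (r = 0.98) and rpz5 (r = 0.98), with 1055 genes at 0.9 or more. For wt1b they were gja13.2 (r = 0.97) and LTB4R (r = 0.96), with 124 genes. For sox9b they were ENSDARG00000089394, which has no symbol in the gene table (r = 0.94), and GPRC5B (r = 0.93), with 3 genes. For dmrt1 they were ENSDARG00000045940, also without a symbol (r = 0.90), and PSMG2 (r = 0.86), with 1 gene at 0.9 or more. Among the 5 themselves sox9a and wt1a were most alike (r = 0.96), and dmrt1 had an r between -0.39 and 0.14 with the other 4.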

How the data were processed

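The members and the gene lists were chosen with earlier results of these data known. Each deposited table holds counts, 1 whole number per Ensembl identifier, as the values show. Per the submitters' processing notes, FastQC 0.10.1, TopHat2 2.0.5, SAMtools 0.1.18, HTSeq and DESeq were used with the genome build Zv9; the annotation release and the strand setting are not given in the sources used here. Per the labels' protocols, libraries were made with a TruSeq v2 kit from total RNA. Sample titles gave groups and replicate numbers. Not analysed here was control replicate 2.

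Counts of 14 libraries were fitted with edgeR 4.0.16 in R 4.3.3 (filterByExpr, TMM, group as the only factor, quasi-likelihood F-test, adjustment over 21277 tested genes holding 99.8% of counts). Standard errors are the fold change divided by the square root of F, and 95% intervals use the fit's degrees of freedom. The 3 groups share 1 dispersion per gene, although the common dispersion was 0.0847 in control, 0.415 in depleted and 0.154 in recovering testes, so fits of only the 2 groups compared were an alternative, beside DESeq2 1.42.0, limma-voom (limma 3.58.1), other scalings and filters, a replicate block and leaving out each library. Scripts were tested on simulated data with 1 dispersion for all groups and 200 changed genes. Groups of unequal spread, or changes in most genes, were not simulated. Exact counting intervals (95%, Clopper-Pearson) were taken from the count in each library, so they cover counting error only and not the spread between samples. Reads carried no molecular identifiers. Across 26 same-group pairs chi-square per degree of freedom (genes with 10 or more counts) was never below 13.9, so every library counted as 1 replicate.

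Symbols came from a table pairing 21948 of the 33752 identifiers; it often gives capitals without a paralogue letter, so list symbols were matched without regard to case, then without that letter, and genes are printed as the table spells them. It lists both sox9 copies as SOX9 and wt1a as WT1; the zebrafish names of the 5 genes follow the identifiers they were chosen by. Beyond the 5 genes, named are gsdf, amh, FSHR, DDX4 and SYCP3, the largest called rise or fall of a list in depleted against control testes (mean of at least 1 CPM), and the 2 genes most like each member; NR5A1, DMRT2, DMRT3, NPHS1, COL2A1 (ENSDARG00000069093), FOXL2, figla and col1a1a were added after their values were seen. One gene that the rule names is not reported here.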

Additional observations from a re-analysis of the deposited data

Results flagged for a closer look

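Dixon's test for a sample far from the rest was applied to 24 sets of values, each 1 gene or ratio in 1 group. Genes were taken as CPM and ratios on the log2 scale. It picked out 2 sets, where chance alone gives about 1.2, and both concern wt1b in recovering replicate 1. Both contain the same wt1b count, so they are not 2 separate flags to set beside that number.

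In recovering testes wt1b stood at 60.8 CPM in replicate 1 against 9.58 CPM in the next library. That gap was 0.881 of the range of the 5 samples (critical value 0.71). On the log2 scale, relative to the control mean, wt1b was 4.25, 0.52, -0.27, 0.41 and 1.59 in recovering replicates 1 to 5. Gene levels were not put to the test on that scale. In recovering replicate 1 the log2 ratio of wt1a to wt1b was -1.16 against 2.28 in the next, a gap of 0.905 of the range. The exact 95% counting interval of that wt1b level, 55.9 to 66.1 CPM, lies inside the range of the depleted testes, and depleted replicate 1 held the most wt1b of that group, 70.0 CPM.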

How the results depend on the processing

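Over 24 alternatives the changes of sox9a and wt1a between depleted testes and either other group, and the rise of wt1b in depleted testes, kept their direction and passed the threshold, with log2 fold changes in depleted against control testes from 3.47 to 4.18 for sox9a, from 3.08 to 3.64 for wt1a and from 3.15 to 3.76 for wt1b. The small change of dmrt1 in depleted testes turned negative, uncalled throughout, with DESeq2 size factors (-0.020), total counts (-0.31), DESeq2 (-0.035), limma-voom (-0.062), the replicate block (-0.0038), the block in only the 2 groups (-0.061) and without depleted replicate 2 (-0.030 to 0.21 over single libraries left out), and in recovering against depleted testes it turned to 0.10 with total counts. The call of sox9b in depleted testes was lost in 17 of 24 alternatives. The log2 ratio of wt1a to wt1b ranged from -0.12 to 0.61 in depleted against control and from -0.79 to 0.16 in recovering against control testes over single libraries left out. In recovering against control testes those ranges were 1.19 to 1.53 for sox9a to sox9b and -2.06 to -1.35 for dmrt1 to sox9a.

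An adjusted p under 0.01 left 7987 genes in recovering against depleted testes and 0 in recovering against control testes (edgeR, 3394 at an unadjusted p under 0.05). The latter count, 96, was 1313 with DESeq2, 2374 with limma-voom, 1254 with only the 2 groups and 236 with libraries under 20000000 counts, and from 0 to 556 with 1 library left out. It was 0 without control replicate 1, 3, 4 or 5 or recovering replicate 1, 2 or 4, where from 2401 to 3311 genes had an unadjusted p under 0.05. Total counts in place of TMM turned the split in depleted against control testes from 7273 higher and 6833 lower to 5565 and 8591, and in recovering against depleted testes from 6098 and 6500 to 7665 and 4464. The cause of these shifts was not tested.

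The labels do not say whether equal replicate numbers are pairs. Deviations of same-numbered samples from their group means correlated between -0.159 and 0.241. Their mean was 0.116 in recovering against control testes, beside -0.029 for samples with unequal numbers. It was -0.013 beside 0.0032 in depleted against control testes, and -0.019 beside 0.0047 in recovering against depleted testes. So few same-numbered samples cannot settle whether they are pairs. With a replicate block the count in recovering against control testes was 9, or 870 with only the 2 groups (an alternative chosen after seeing the data), sox9b lost its call in depleted testes, and wt1b gained one in recovering against depleted testes (-1.76, edgeR adjusted p = 0.0122, where alternatives ranged from 0.00263 to 0.447). With the block in only the 2 groups sox9a passed in recovering against control testes (1.62, edgeR adjusted p = 0.0424, range 0.0160 to 0.310).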

Other observations

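Counts of the members relative to the Sertoli marker gsdf were examined after their values were seen, as a description without a test. The ratio of dmrt1 to gsdf lay between 0.691 and 0.931 in the 4 control testes and between 0.158 and 0.449 in the 5 depleted testes. It lay between 0.267 and 0.503 in the 5 recovering testes, so both other groups lay below all controls. The level of gsdf itself was 573 to 802 CPM in control, 910 to 3057 in depleted and 847 to 1793 in recovering testes. As dmrt1 was not called in any comparison, its ratio to gsdf mostly restates the level of gsdf. The ratio of sox9a to gsdf lay between 0.00690 and 0.0233 in control, between 0.0475 and 0.103 in depleted and between 0.0113 and 0.0570 in recovering testes, with the depleted testes above all controls. Against amh, another Sertoli cell gene, the ratio of dmrt1 overlapped between groups, at 1.07 to 2.83 in control, 0.616 to 2.75 in depleted and 1.38 to 3.92 in recovering testes. Which groups differed in dmrt1 relative to a Sertoli cell gene thus depended on the marker. The ratio of sox9a to amh lay between 0.0191 and 0.0378 in control and between 0.137 and 0.330 in depleted testes. In recovering testes it lay between 0.0371 and 0.444. The depleted testes again lay above all controls.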
